A study of Mus musculus with 6 samples.

Results

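The 38 genes described here encode the machinery that folds proteins and checks their quality in the endoplasmic reticulum (ER), together with the stress pathways that monitor it. They were listed by name, and all 38 were found among the 17428 genes with coverage values, 1 of them (Manf) under its older symbol Armet. By role they comprise 12 chaperones and co-chaperones, 6 enzymes of disulfide bond formation, 9 factors of ER-associated degradation, 6 stress sensors and transcription factors, and 5 outputs of the integrated stress response. All 38 passed the filter on low values, so that they are 38 of the 13893 genes tested.

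The study followed EpH4, a near-normal mouse mammary epithelial cell line, through epithelial-to-mesenchymal transition and back. E cells were untreated, M cells had been exposed to TGFβ1 for 7 days, and RE cells had the same 7 days of TGFβ1 and then 4 days in normal medium. All 3 stages were grown in serum-containing medium with antibiotics and insulin, and the dose of TGFβ1 is not given in the sources used here. Each stage was sequenced in 2 libraries, 6 in all, so that every comparison rests on 2 libraries per stage of 1 cell line.

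Proteins that enter the secretory pathway fold in the ER with the help of chaperones and disulfide isomerases, and those that fail to fold are sent back to the cytosol for degradation. When unfolded proteins accumulate, the sensors Ern1 (IRE1α), Eif2ak3 (PERK) and Atf6 start the unfolded protein response, in which the factors Xbp1 and cleaved Atf6 raise chaperone and degradation genes. Eif2ak3 also phosphorylates eIF2α, which lets the factor Atf4 be translated, and Atf4 activates the integrated stress response, a program that other kinases start on amino acid shortage, haem deficiency or viral RNA. Xbp1 is controlled by splicing, Atf6 by cleavage and Atf4 by translation, none of which a value summed over a gene measures.

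Promoter elements known for these arms were looked for among the members. The ER stress response element (ERSE, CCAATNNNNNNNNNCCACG) was searched on both strands of RefSeq promoter windows of 300 bases (GRCm38.p6, 250 bases before and 50 after the start of transcription), and windows were matched for 33 of the 38 members (not for Hyou1, Manf, Hspa13, Derl1 and Atf6). It matched in 10 of the 33 (30.3%), namely Hspa5, Hsp90b1, Calr, Canx, Dnajc3, Creld2, Pdia6, Ero1lb, Syvn1 and Derl3, and in 37 of all 27025 windows (0.137%). The shorter element ERSE-II (ATTGGNCCACG) matched in Dnajb11 and Herpud1, against 12 of all windows (0.0444%). The C/EBP-ATF response element bound by Atf4 (CARE, TGATGNAA) matched in Herpud1, Trib3, Chac1 and Asns, that is, 4 of 33 (12.1%) against 4.51% of all windows, and 3 of these 4 are among the 5 integrated stress response outputs. The Xbp1-type element (UPRE, TGACGTGG) matched in 0 of the 33 and in 0.714% of all windows, which says only that these letters are not in these windows. ERSE and ERSE-II share the letters CCACG, whose reverse complement ends UPRE, but no member matched more than 1 of these 3. ERSE was first described in promoters of members such as Hspa5 and Hsp90b1, so that its share is a description of the list and not a result. The same holds for CARE, since the integrated stress response outputs were listed as genes of the Atf4 arm.

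The following stretches show the elements of members on which the results turn, each with 30 bases on either side where these lie before the start, read 5′ to 3′ on the strand of the gene, with the matched letters in capitals. Hspa5 (chr2:34771995-34772073, plus strand), Hsp90b1 (chr10:86705503-86705686, minus strand), Canx (chr11:50325770-50325848, minus strand) and Dnajc3 (chr14:118937797-118937875, plus strand) carry ERSE, 2 copies of it in Hsp90b1. Herpud1 (chr8:94386287-94386417, plus strand) carries CARE, in reverse, and ERSE-II. Asns (chr6:7693210-7693262, minus strand) and Chac1 (chr2:119351019-119351086, plus strand) carry CARE, in reverse in Chac1.
Hspa5: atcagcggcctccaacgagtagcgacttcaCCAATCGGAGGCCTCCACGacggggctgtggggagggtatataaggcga
Hsp90b1: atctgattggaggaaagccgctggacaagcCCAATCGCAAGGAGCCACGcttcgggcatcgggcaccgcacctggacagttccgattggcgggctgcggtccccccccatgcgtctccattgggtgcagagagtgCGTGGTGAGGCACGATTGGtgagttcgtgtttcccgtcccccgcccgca
Canx: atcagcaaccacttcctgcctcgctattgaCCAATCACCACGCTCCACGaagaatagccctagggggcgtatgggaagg
Dnajc3: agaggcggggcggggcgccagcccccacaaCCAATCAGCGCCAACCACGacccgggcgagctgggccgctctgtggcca
Herpud1: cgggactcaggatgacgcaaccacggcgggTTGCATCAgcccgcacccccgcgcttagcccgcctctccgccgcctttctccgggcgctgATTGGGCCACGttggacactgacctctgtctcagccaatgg
Asns: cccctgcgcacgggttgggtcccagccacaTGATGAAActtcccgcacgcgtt
Chac1: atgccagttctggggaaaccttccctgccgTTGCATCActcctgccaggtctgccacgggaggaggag

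The libraries held 35782513 reads' worth of coverage (sequenced bases summed over each gene, for reads of 50 bases) at the least and 47928557 at the most, and levels are given in ppm of the normalized library total. How reads were summed per gene is not given in the sources used here, so that overlapping genes may share coverage. The authors mapped unique reads, and near-identical copies may lack coverage if this means reads with a single place in the genome. The 2 E libraries differed from each other more than the other pairs did, also over the members. Over the 38 members the SD of the log2 difference between the 2 libraries of a stage was 0.77 in E, 0.20 in M and 0.11 in RE, and over all genes tested it was 0.56, 0.32 and 0.31. Sdf2l1, Manf, Creld2, Derl3, Ern1 and Atf6 differed by over 2-fold between E1 and E2, and 26 members were higher in E1 and 12 lower. Over all genes the log2 difference of E1 from E2 had a Spearman correlation of -0.46 with transcript length, a description across genes of 1 pair of libraries, against -0.09 in M and 0.16 in RE. The part of this difference in the results with E was not tested, and values without E1 or E2 are given where a call turns on them. Summed luminal keratins and adhesion genes (Epcam, Cdh1, Krt8, Krt18, Krt19 and Krt7) lay at 3100 and 2844 ppm in E, 2857 and 2895 ppm in M and 1121 and 1250 ppm in RE, and summed mesenchymal genes (Vim, Fn1, Zeb2 and Cdh2) at 2399 and 5301 ppm, 18437 and 18147 ppm, and 11622 and 10606 ppm. Fn1 made up nearly all of the mesenchymal sum (2379 and 5276 ppm in E), and Vim alone was higher in E1 than in E2 (6.52 and 3.16 ppm). Within the luminal list, the log2 fold change from E to M was -1.26 for Epcam and 0.67 for Krt8. Summed basal genes (Krt5, Krt14, Krt17 and Trp63) lay at 375 and 306 ppm in E, 716 and 814 ppm in M, and 497 and 495 ppm in RE. The part of these marker genes in the results was not tested. The leukocyte list summed to between 5.27 and 9.36 ppm, nearly all of it Cd68 (5.17 to 9.18 ppm), and 3 of its 5 genes, among them Ptprc, lay at or below the floor of 3 reads' worth in every library. As these are bulk libraries, fewer cells of a type and less RNA per cell cannot be told apart in any value given here.

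Per kilobase of transcript, the members spanned more than 3 orders of magnitude. In E cells Hsp90b1 (GRP94, the ER form of Hsp90) stood highest at a mean of 767 ppm per kb, followed by the lectin-like chaperone Calr at 516 and by Hspa5 (BiP, the Hsp70 of the ER) at 504, then Atf4 at 431, the asparagine synthetase Asns at 430 and the isomerase Pdia3 at 371. In M cells Hsp90b1 (882), Calr (648), Hspa5 (464) and Pdia3 (461) led, and in RE cells Hsp90b1 (716), Calr (561) and Hspa5 (490). Values of Calr and Hspa5 overlapped between libraries of E cells, so that their order in E is not larger than the spread. At the other end were Derl3 (0.25 ppm per kb in E, 0.37 in M and 0.38 in RE), Ero1lb (2.41, 2.30 and 2.04) and the sensor Ern1 (5.38, 7.73 and 5.08). Derl3, a derlin of secretory tissues, had values between 0.134 and 0.660 ppm, against a floor of 0.0635 to 0.0781 ppm, so that nothing is drawn from its differences.

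The first question was which members changed as E cells became M cells. 6 of the 38 were differentially expressed genes (DEGs, a log2 fold change over 1 either way on the scale of log2(ppm + 0.1), with a Benjamini-Hochberg adjusted p below 0.01 in limma), 3 of them higher in M and 3 lower. Hspa13, P4hb and Eif2ak3 were higher, and Trib3, Chac1 and Ddit3, all genes of the Atf4 arm, were lower. That is 7.89% of the members in each direction, near the 8.58% of all genes tested that were DEGs higher in M and the 8.39% that were DEGs lower. At an adjusted p below 0.05, whatever the fold, 8 members were higher (21.1%, against 21.5% of all genes) and 5 lower (13.2%, against 19.9%). The median log2 fold change was 0.22 over the members and 0.00 over all genes tested. Scaled by library totals alone, the members' median was -0.08, but that of all genes moved to -0.29, so that the members lay about as far above it.

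**Figure D1:**
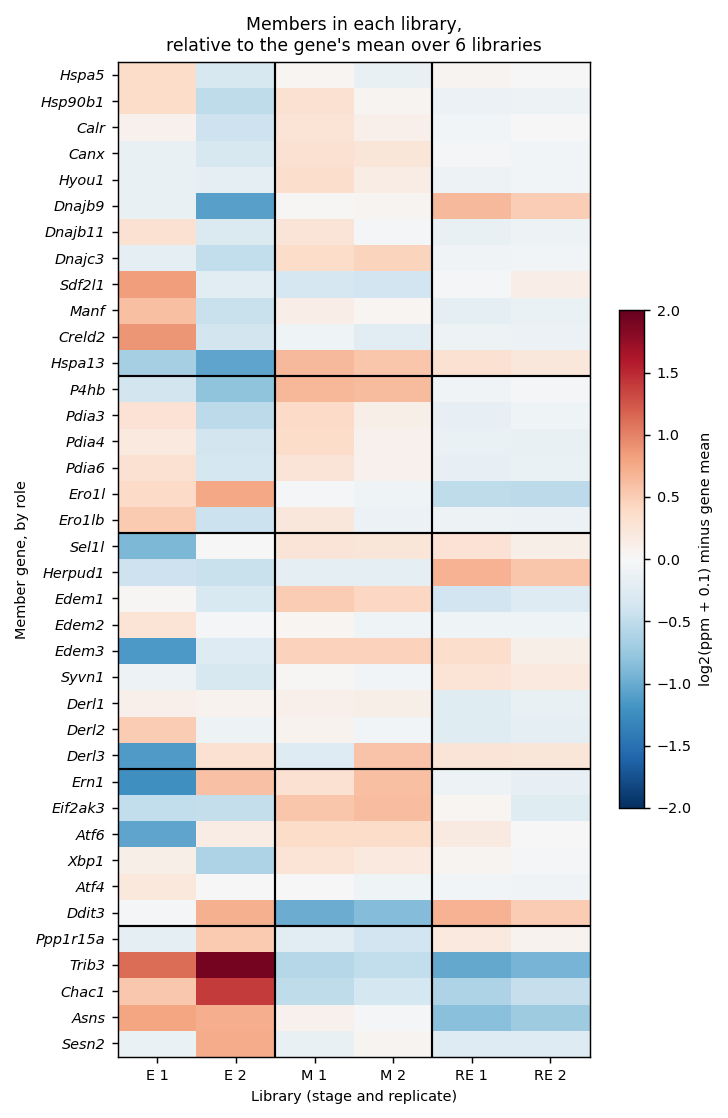
Each row is 1 of the 38 members and each column 1 library, and the colour gives log2(ppm + 0.1) minus the gene's mean over the 6 libraries, with black lines between stages and between roles. Trib3, Chac1 and Asns at the bottom were highest in E cells, and E 1 and E 2 differed from each other for many chaperones, while the 2 libraries of M and of RE looked alike.

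In the way back from M to RE cells, 1 member was a DEG, Ddit3, which was higher in RE. This is 2.63% of the members against 8.08% of all genes, and 0 members were DEGs lower in RE, against 4.79%. With an unadjusted p below 0.05 in limma, 8 of the 38 members were lower in RE, against 2875 of the 13893 genes tested. At an adjusted p below 0.05, 2 members were higher (Ddit3 and Herpud1, 5.26%, against 17% of all genes) and 5 lower (Dnajc3, P4hb, Edem1, Eif2ak3 and Asns, 13.2%, against 14.6%), and the median was -0.24 against -0.02. These counts use a spread estimated from all 6 libraries, the E pair included. When M and RE cells were fitted alone, 27 of the 38 members had an adjusted p below 0.05, 6 of them higher in RE (15.8%, against 27.1% of all genes) and 21 lower (55.3%, against 28.7%). The 6 were Ddit3, Herpud1, Dnajb9, Ppp1r15a, Sdf2l1 and Syvn1. Scaled by library totals, the values of Dnajc3 and P4hb were -0.26 and -0.49 and no longer passed an adjusted p of 0.05. In the fit of M and RE alone every fall was under 2-fold, and Ddit3 remained the one DEG.

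Between E and RE cells, which asks how far the members came back, 6 members were DEGs. Hspa13 and Herpud1 were higher in RE, and Trib3, Asns, Chac1 and Ero1l were lower. Of the members, 5.26% were DEGs higher in RE, against 6.2% of all genes, and 10.5% were DEGs lower, against 3.17%. At an adjusted p below 0.05, 5 members were higher (13.2%, against 17.2%) and 4 lower (10.5%, against 12.9%), and the median was -0.02 against 0.01. Without RE1 or without RE2, these 6 DEG calls were all lost, and most DEG calls over all genes were lost as well. Over the 3 comparisons, 9 members were DEGs at least once, 7 more had an adjusted p below 0.05 (Canx, Hyou1, Dnajc3, Dnajb9, Edem1, Edem3 and Syvn1), and 22 had neither. The share of all genes called at least once over the 3 comparisons was not counted, so that these numbers only describe the list. The 3 comparisons share libraries by pairs, so that they are not independent of each other.

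**Figure D2:**
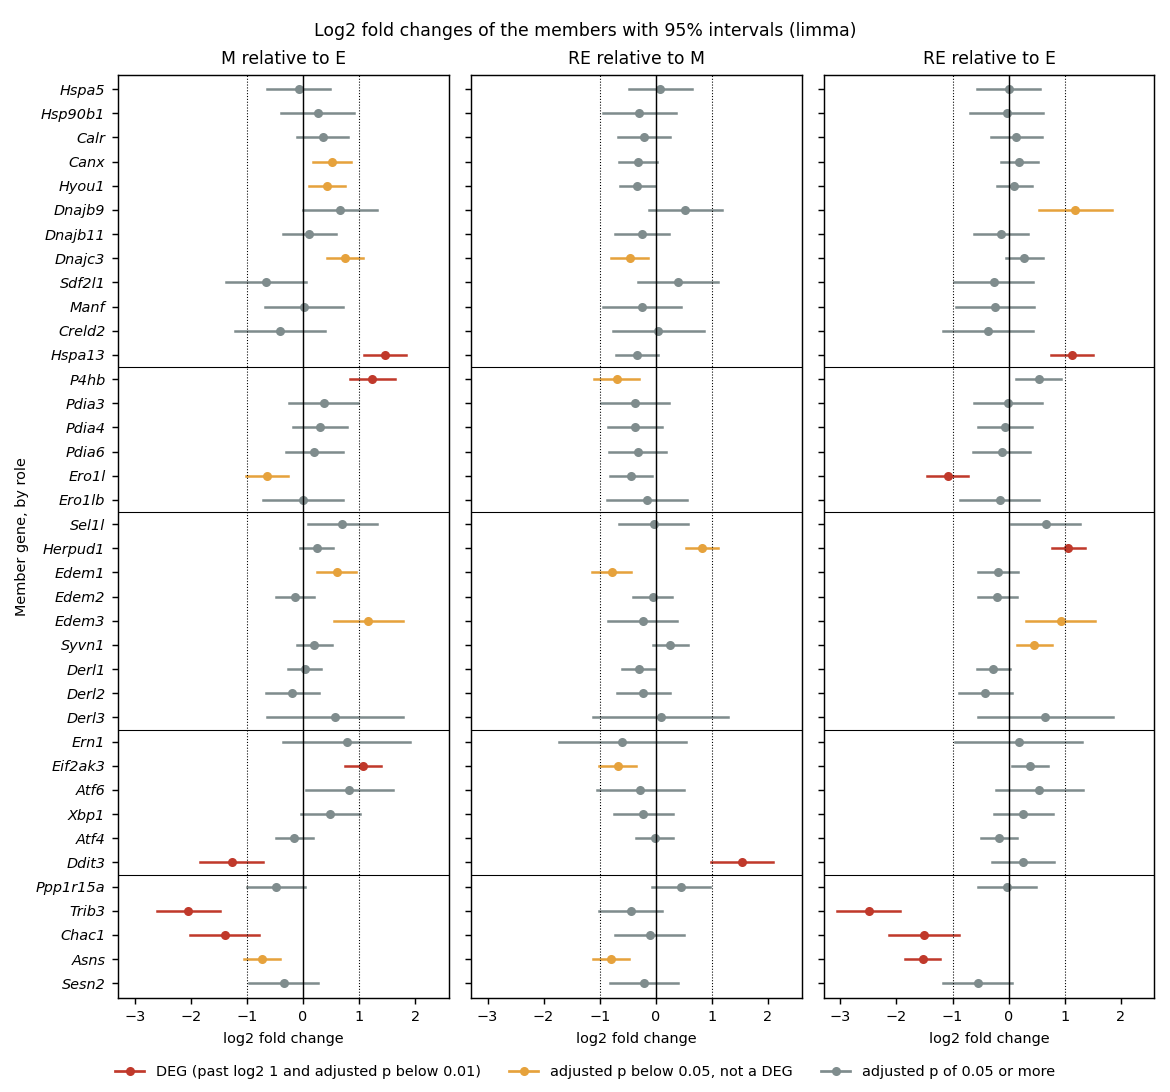
Points are log2 fold changes of the 38 members by role and lines their 95% intervals, for M relative to E, RE relative to M and RE relative to E, with dotted lines at 1 and -1. Red marks DEGs, orange an adjusted p below 0.05 without the DEG call, and grey neither, and the 2 largest changes of all are those of Trib3, at -2.05 and -2.49.

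Among the 12 chaperones, 4 rose from E to M cells (Hspa13, Dnajc3, Canx and Hyou1; 33.3%, against 21.5% of all genes) and 8 passed no threshold. Hspa13, an Hsp70-family ATPase of microsomes, had 48.0 and 36.4 ppm in E, 119 and 112 ppm in M, and 94.1 and 89.1 ppm in RE. Every M and RE value lay above both E values, and the log2 fold change was 1.46 ± 0.16 (SE, n = 2, adjusted p = 0.000415) in E vs. M and 1.13 ± 0.16 (SE, n = 2, adjusted p = 0.00276) in E vs. RE. The first held the DEG call in every alternative fit, and the second lost it without E2 (0.93), without any 1 of the M or RE libraries, in the fit of E and RE alone and after removal of GC and length trends. Dnajc3 (p58IPK), a co-chaperone that also inhibits Eif2ak3, had 78.4 and 64.4 ppm in E, 116 and 123 ppm in M, and 86.1 and 86.5 ppm in RE. It was higher in M than in either other stage, by 0.75 ± 0.14 (SE, n = 2, adjusted p = 0.00482) over E, and it changed by -0.47 ± 0.14 (SE, n = 2, adjusted p = 0.0389) from M to RE. Canx, the membrane-bound lectin chaperone, had 832 and 737 ppm in E, 1142 and 1091 ppm in M, and 901 and 889 ppm in RE, and Hyou1 (GRP170), a nucleotide exchange factor of Hspa5, had 380 and 367 ppm in E, 537 and 470 ppm in M, and 394 and 407 ppm in RE. Both were highest in the M libraries, with log2 fold changes over E of 0.51 ± 0.14 (SE, n = 2, adjusted p = 0.0246) and 0.43 ± 0.13 (SE, n = 2, adjusted p = 0.0381). Scaled by library totals, these were 0.21 and 0.13 for Canx and Hyou1, no longer past an adjusted p of 0.05.

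Hspa5, Hsp90b1 and Calr, the most abundant chaperones, did not pass the test in any comparison in the fit of all libraries. Hspa5, the chaperone that binds the 3 sensors at rest, had 2290 and 1413 ppm in E, 1822 and 1589 ppm in M, and 1826 and 1774 ppm in RE. Its M and RE values lay between the 2 E values, and the log2 fold change was -0.08 in E vs. M, with a 95% interval from -0.64 to 0.48, and 0.00 in E vs. RE, from -0.55 to 0.56. The 2 E libraries set the width of these intervals, and changes within them were not detectable. Hsp90b1 had 2802 and 1533 ppm in E, 2708 and 2278 ppm in M, and 2011 and 2036 ppm in RE, so that the E libraries lay on either side of RE, and its interval in E vs. M ran from -0.39 to 0.91. Calr had 1321 and 933 ppm in E, 1505 and 1327 ppm in M, and 1197 and 1251 ppm in RE, with M above E in both libraries but an adjusted p of 0.192. Dnajb11 (ERdj3), a co-chaperone of Hspa5, had values between 131 and 195 ppm that overlapped between E and both other stages. In the limma fit of M and RE alone, Hsp90b1 was lower in RE by a log2 fold change of -0.30 (adjusted p = 0.0284). Dnajb11 was lower by -0.25 (adjusted p = 0.0435) in that fit, and Hspa5 and Calr did not pass.

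Dnajb9 (ERdj4), which presents Hspa5 to Ern1 and is a target of Xbp1, was highest in RE. It had 23.9 and 12.3 ppm in E, 26.9 and 27.4 ppm in M, and 41.4 and 37.04 ppm in RE, both RE values being above every other, and the log2 fold change in E vs. RE was 1.19 ± 0.28 (SE, n = 2, adjusted p = 0.0182), short of the DEG call on its p alone. Against E1 alone it was 0.72, and against E2 alone 1.66. The small secreted or luminal factors Sdf2l1, Manf and Creld2 could not be placed relative to E cells, since E1 exceeded E2 by over 2-fold for each. Creld2 had 154 and 64.5 ppm in E, 77.9 and 71.4 ppm in M, and 77.0 and 76.9 ppm in RE, Sdf2l1 60.2 and 28.8 ppm in E, 26.6 and 25.8 ppm in M, and 32.6 and 36.6 ppm in RE, and Manf 235 and 113 ppm in E, 170 and 159 ppm in M, and 135 and 142 ppm in RE. Both M libraries, and both RE libraries, lay close together for these genes. In the limma fit of M and RE alone, Sdf2l1 was higher in RE by a log2 fold change of 0.40 (adjusted p = 0.00506). In that fit Manf was lower in RE, at -0.25 (adjusted p = 0.0207), and Creld2 did not pass. In E vs. M, the value of Creld2 was -1.07 without E2 and 0.21 without E1, and that of Sdf2l1 was -1.22 and -0.13.

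Of the 6 enzymes of disulfide formation, 1 rose and 1 fell from E to M cells (16.7% each, against 21.5% and 19.9% of all genes). P4hb, the classical protein disulfide isomerase and also the β subunit of the collagen prolyl 4-hydroxylase, had 456 and 336 ppm in E, 929 and 910 ppm in M, and 561 and 574 ppm in RE. Both M values were well above every other value, with 1.23 ± 0.17 (SE, n = 2, adjusted p = 0.00130) in E vs. M and -0.70 ± 0.17 (SE, n = 2, adjusted p = 0.0192) in M vs. RE, and RE values stayed above E values, by 0.53 on the log2 scale with an adjusted p of 0.051. Without E2 the rise was 0.99, and the DEG call was also lost without either M library and when values were scaled by library totals (0.93). The other isomerases Pdia3, Pdia4 and Pdia6 had log2 fold changes of 0.36, 0.31 and 0.20 in E vs. M and of -0.37, -0.37 and -0.32 in M vs. RE, none of which passed the test in the fit of all libraries. For all of them the RE values lay below both M values, and in the fit of M and RE alone they passed, with adjusted p-values of 0.00669, 0.00561 and 0.00699.

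Ero1l (Ero1α), the oxidase that reoxidises P4hb, went the other way. It had 61.0 and 79.5 ppm in E, 45.4 and 43.7 ppm in M, and 33.0 and 32.5 ppm in RE, so that the 3 stages were ordered from E through M to RE with no overlap. The log2 fold change was -0.64 ± 0.16 (SE, n = 2, adjusted p = 0.0145) from E to M, -0.44 from M to RE with an adjusted p of 0.0679, and -1.09 ± 0.16 (SE, n = 2, adjusted p = 0.00300) in E vs. RE. Without E2 the last was -0.89 and no longer a DEG. The call was also lost in the fit of E and RE alone and without any 1 of the M or RE libraries. Its relative Ero1lb (Ero1β) was low, at 6.92 to 13.5 ppm, with E values on either side of all others.

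**Figure D3:**
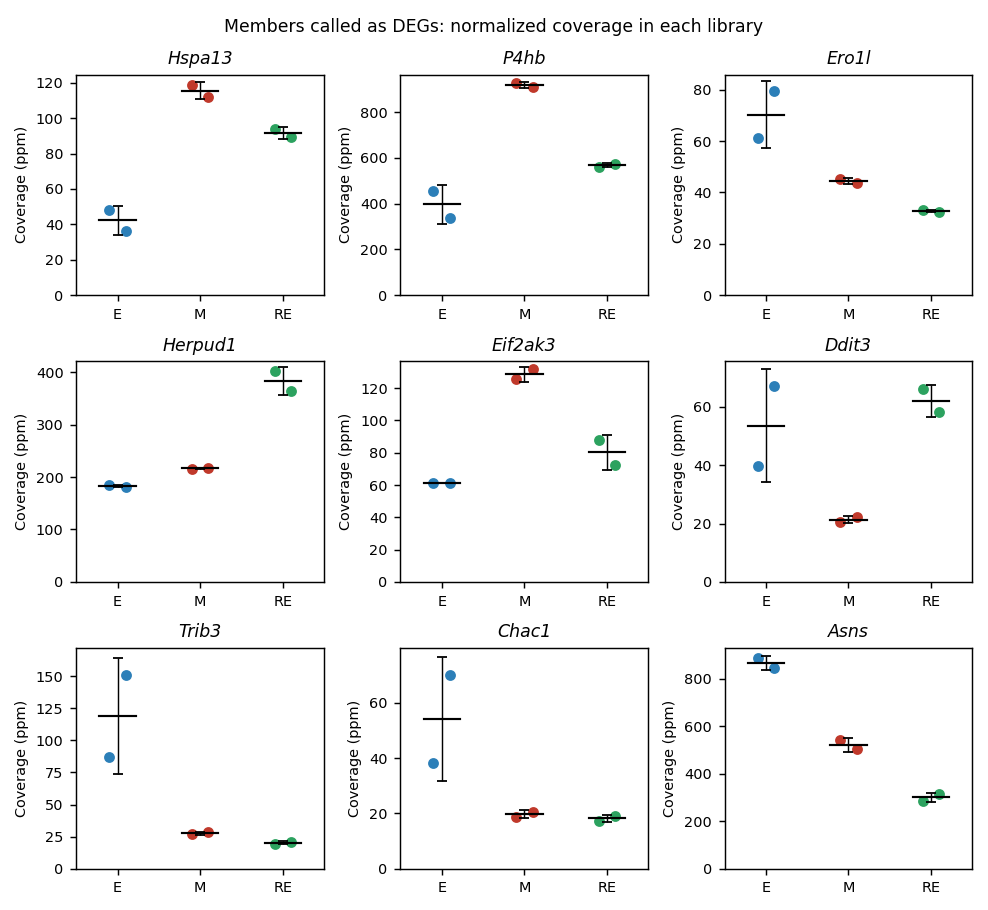
Points are normalized coverage in ppm of each library for the 9 members called as DEGs in at least 1 comparison, with the mean of each stage as a bar and its SD (n = 2) as whiskers, on linear axes that start at 0. P4hb, Eif2ak3 and Hspa13 peaked in M, Ddit3 was lowest in M, Herpud1 was highest in RE, and Trib3, Chac1, Asns and Ero1l were highest in E.

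Among the 9 factors of ER-associated degradation, 2 rose from E to M cells (Edem1 and Edem3), 3 were higher in RE than in E cells (Herpud1, Edem3 and Syvn1), and from M to RE 1 rose (Herpud1) and 1 fell (Edem1). These are 22.2% against 21.5% of all genes, 33.3% against 17.2%, and 11.1% against 17% and 14.6%. Herpud1, a membrane protein that organises the ubiquitin ligase complex, is the one member with a match to both ERSE-II and CARE shown above, and it was highest in RE cells. It had 185 and 182 ppm in E, 216 and 217 ppm in M, and 402 and 365 ppm in RE, with both RE values above all others and E and M values close together. The log2 fold change was 0.82 ± 0.13 (SE, n = 2, adjusted p = 0.00241) from M to RE cells and 1.06 ± 0.13 (SE, n = 2, adjusted p = 0.00135) from E to RE cells, and 0.24 from E to M cells with an adjusted p of 0.161. With either RE library left out the E vs. RE value was 0.99 or 1.13 and no longer a DEG. The call was also lost when values were scaled by library totals (0.97) and in the fit of E and RE alone.

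Edem1, which takes mannose-trimmed misfolded glycoproteins to degradation, was highest in M cells, with 90.8 and 72.6 ppm in E, 127 and 119 ppm in M, and 68.2 and 74.8 ppm in RE. RE and E values overlapped, and the log2 fold change was 0.60 ± 0.15 (SE, n = 2, adjusted p = 0.0161) in E vs. M and -0.79 ± 0.15 (SE, n = 2, adjusted p = 0.00689) in M vs. RE. Scaled by library totals the rise was 0.30 and no longer passed. Its relative Edem3 had 25.7 and 47.5 ppm in E, 78.5 and 78.4 ppm in M, and 72.1 and 61.6 ppm in RE, all M and RE values being above E2 and E2 above E1. The log2 fold change of 1.17 ± 0.26 (SE, n = 2, adjusted p = 0.0107) in E vs. M missed the DEG call on its p, and it was 1.59 against E1 alone and 0.72 against E2 alone. Edem2 did not pass the test in any comparison, with values between 79.8 and 103 ppm. Syvn1 (Hrd1), the ubiquitin ligase itself, had 188 and 162 ppm in E, 205 and 196 ppm in M, and 245 and 233 ppm in RE, with 0.45 ± 0.13 (SE, n = 2, adjusted p = 0.0386) in E vs. RE, and Sel1l, its partner, had 36.5 and 68.0 ppm in E, 81.3 and 80.4 ppm in M, and 83.3 and 74.2 ppm in RE, with E1 far below E2 and no call. Derl1 and Derl2, channel components, lay at 35.3 to 45.2 ppm and 39.0 to 65.8 ppm, and neither passed in the fit of all libraries. In the limma fit of M and RE alone, Derl1 was lower in RE by a log2 fold change of -0.30 (adjusted p = 0.0147), and Derl2 did not pass.

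Of the 3 sensors, Eif2ak3 was the one that passed in the fit of all libraries. It had 61.1 and 61.4 ppm in E, 125 and 132 ppm in M, and 88.0 and 72.7 ppm in RE, the E libraries being nearly equal, both M values above every other, and RE values between. The log2 fold change was 1.07 ± 0.14 (SE, n = 2, adjusted p = 0.000960) in E vs. M and -0.68 ± 0.14 (SE, n = 2, adjusted p = 0.00879) in M vs. RE, and RE values differed from E values by 0.38 with an adjusted p of 0.073. The change was close to the threshold of 1, and scaling by library totals (0.77), removal of GC and length trends and the loss of either M library ended the DEG call, and the value stayed positive in all of them. Ern1 had 16.6 and 58.1 ppm in E, 48.1 and 59.3 ppm in M, and 36.1 and 34.5 ppm in RE, and Atf6 had 32.5 and 74.7 ppm in E, 87.6 and 87.1 ppm in M, and 76.9 and 67.4 ppm in RE. For both, E1 was over 2-fold below E2, so that the comparisons with E rested on which library was used, and Ern1 in E vs. RE was 1.09 without E2 and -0.72 without E1. In M and RE alone, Ern1 was lower in RE by a log2 fold change of -0.60 (adjusted p = 0.000375) and Atf6 by -0.28 (adjusted p = 0.019).

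The transcription factors did not move together. Xbp1 had 188 and 113 ppm in E, 209 and 198 ppm in M, and 179 and 169 ppm in RE, with no adjusted p below 0.05 in the fit of all libraries. Atf4 mRNA was abundant and nearly level, with 793 and 694 ppm in E, 686 and 646 ppm in M, and 664 and 653 ppm in RE, and its log2 fold changes were -0.16, with a 95% interval from -0.48 to 0.17, from E to M, -0.02 from M to RE and -0.17, from -0.50 to 0.16, from E to RE. Ddit3 (CHOP), a target of Atf4 that promotes cell death under lasting stress, was low in M cells and back up in RE cells, with 39.8 and 67.3 ppm in E, 20.4 and 22.3 ppm in M, and 66.0 and 58.1 ppm in RE. M values were below all others and RE values within the range of E. The log2 fold change was -1.28 ± 0.24 (SE, n = 2, adjusted p = 0.00466) from E to M cells and 1.53 ± 0.24 (SE, n = 2, adjusted p = 0.00260) from M to RE cells, and RE differed from E by 0.26 with an adjusted p of 0.44. Against E1 alone the fall to M was -0.92, under the threshold, and against E2 alone -1.65. The DEG call of this fall was also lost in the fit of E and M alone and without any 1 of the M or RE libraries. Removal of GC and length trends ended it too. The rise to RE was 1.44 to 1.63 with any 1 M or RE library left out, with an adjusted p over 0.01 in each case.

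The 5 outputs of the integrated stress response all had negative values in E vs. M and E vs. RE. In E vs. M, 3 passed the adjusted p of 0.05, all lower (60%, against 19.9% of all genes), with a median log2 fold change of -0.73, and in E vs. RE the same number passed (60%, against 12.9%), with a median of -1.51. Trib3, a pseudokinase that restrains Atf4 and Ddit3, had the largest change of all members, with 87.2 and 151 ppm in E, 26.9 and 28.4 ppm in M, and 19.6 and 21.0 ppm in RE. M and RE values were all far below both E values, and the log2 fold change was -2.05 ± 0.24 (SE, n = 2, adjusted p = 0.000601) in E vs. M and -2.49 ± 0.24 (SE, n = 2, adjusted p = 0.000706) in E vs. RE. The E vs. M call held in every alternative fit, and the E vs. RE call was lost only when an RE library was left out. Chac1, a γ-glutamyl cyclotransferase that breaks down glutathione, had 38.4 and 70.2 ppm in E, 18.6 and 20.7 ppm in M, and 17.2 and 19.2 ppm in RE, with -1.40 ± 0.27 (SE, n = 2, adjusted p = 0.00506) and -1.51 ± 0.27 (SE, n = 2, adjusted p = 0.00607) in the same comparisons. M and RE values of Chac1 overlapped, and without E2 its E vs. M value was -0.99. Both DEG calls of Chac1 were lost in fits of the 2 stages compared and without any 1 of the M or RE libraries.

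Asns, which makes asparagine, fell in steps, with 889 and 846 ppm in E, 543 and 502 ppm in M, and 287 and 313 ppm in RE, and the libraries of each stage lay close together. The log2 fold change was -0.73 ± 0.14 (SE, n = 2, adjusted p = 0.00450) from E to M cells, -0.80 ± 0.14 (SE, n = 2, adjusted p = 0.00385) from M to RE cells and -1.53 ± 0.14 (SE, n = 2, adjusted p = 0.000531) over both steps. The E libraries agreed for this gene, so that leaving out either moved the E vs. RE value only to -1.50 or -1.56. With either RE library left out that value was -1.47 or -1.59, and the DEG call was lost. Sesn2, a stress-induced inhibitor of growth signalling, had 40.8 and 74.9 ppm in E, 40.5 and 46.8 ppm in M, and 37.7 and 37.5 ppm in RE, and Ppp1r15a (GADD34), which returns eIF2α to its active state, had 107 and 174 ppm in E, 103 and 92.8 ppm in M, and 139 and 127 ppm in RE. Neither passed in the fit of all libraries. In M and RE alone Ppp1r15a was higher in RE by 0.44 (adjusted p = 0.000812), in the direction of Ddit3, while Asns, Trib3 and Eif2ak3 were lower.

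Other genes of the same program were examined from lists chosen by function, with earlier results of these data known. Of 29 other integrated stress response genes, 18 were lower in M than in E cells at an adjusted p below 0.05 (62.1%, against 19.9% of all genes), 11 of them DEGs, and 2 were higher. In RE, 19 were lower than in E cells (65.5%, against 12.9%), 15 of them DEGs, and 3 were higher, and the medians were -0.97 and -1.11. Stc2, a secreted glycoprotein, had 109 and 157 ppm in E, 1.56 and 1.46 ppm in M, and 29.2 and 22.4 ppm in RE, with log2 fold changes of -6.35 ± 0.22 (SE, n = 2, adjusted p = 9.20e-06) in E vs. M and -2.35 ± 0.22 (SE, n = 2, adjusted p = 0.000634) in E vs. RE. Cth, of cysteine synthesis, had 109 and 128 ppm in E, 27.5 and 21.2 ppm in M, and 21.4 and 24.2 ppm in RE, and Pycr1, of proline synthesis, 46.2 and 66.4 ppm in E, 17.4 and 14.8 ppm in M, and 9.67 and 10.02 ppm in RE. Both were low in M and in RE, as Trib3 and Chac1 were, with -2.37 ± 0.17 (SE, n = 2, adjusted p = 0.000342) and -2.48 ± 0.20 (SE, n = 2, adjusted p = 0.000418) in E vs. RE. Going from M to RE, 2 of the 29 were DEGs (6.9%, against 8.08% of all genes), Stc2 and the factor Cebpb, both higher in RE, while 6 were lower at an adjusted p below 0.05 (20.7%, against 14.6%) and the median was -0.20. Of 20 cytosolic aminoacyl-tRNA synthetases, which charge transfer RNAs and include Atf4 targets, 14 were lower in RE than in E cells at the adjusted p of 0.05 (70%, against 12.9% of all genes), 4 of them DEGs, and all 20 values were negative in E vs. RE (median -0.71), as they were in M vs. RE (median -0.44). Cars, Vars and Sars had the largest falls in E vs. RE, at -1.44, -1.16 and -1.10. From E to M cells, 5 of the 20 synthetases were lower at the adjusted p of 0.05 (25%, against 19.9% of all genes). In that comparison 0 of them were DEGs, 15 values were negative and 5 positive, and the median was -0.29. CARE matched in 7 of 25 promoter windows of the first list (28%) and in 5 of 13 of the synthetases (38.5%), against 4.51% of all windows. Both lists were chosen by function and include Atf4 targets, so that these shares describe the lists and are not a result.

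Several lists from the early secretory pathway had more genes higher than lower in M cells. Of 18 genes of ER-to-Golgi transport, 9 were higher in M at the adjusted p of 0.05 (50%, against 21.5% of all genes). Of these 9, 5 were DEGs (27.8% of the list, against 8.58% of all genes), and 17 of 18 values were positive, with a median of 0.55. The COPII coat gene Sec24d had 88.1 and 97.0 ppm in E, 295 and 277 ppm in M, and 197 and 193 ppm in RE, with 1.63 ± 0.13 (SE, n = 2, adjusted p = 8.69e-05). Of 23 tested genes of the translocon, signal peptidase and oligosaccharyltransferase, 11 were higher in M at the adjusted p of 0.05 (47.8%, against 21.5% of all genes), 3 of them DEGs, and 9 were lower in RE than in M (39.1%, against 14.6%). The signal peptidase subunit Sec11c led them, with 44.1 and 29.4 ppm in E, 123 and 118 ppm in M, and 30.7 and 31.4 ppm in RE. Of 12 tested genes of collagen folding, 6 were DEGs higher in M (50%, against 8.58%), with a median of 1.08, among them the lysyl hydroxylase Plod2 with 160 and 115 ppm in E, 492 and 512 ppm in M, and 179 and 171 ppm in RE, which like P4hb acts on procollagen. Among 22 other ER folding enzymes, 7 were higher in M at the adjusted p of 0.05 (31.8%, against 21.5% of all genes) and 5 lower (22.7%, against 19.9%). Of the 22, 2 were DEGs higher in M (9.09%, against 8.58%), among them Txndc5 with 1.13 ± 0.13 (SE, n = 2, adjusted p = 0.000479). The median of this list was -0.07.

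The ER-tethered factor Creb3l2, a relative of Atf6 that is cut in the same way and promotes secretory capacity, had 10.01 and 11.5 ppm in E, 59.2 and 64.4 ppm in M, and 27.4 and 26.0 ppm in RE. M values were several times the E values and RE values lay between, and the log2 fold change was 2.51 ± 0.15 (SE, n = 2, adjusted p = 2.61e-05) in E vs. M and -1.21 ± 0.15 (SE, n = 2, adjusted p = 0.000833) in M vs. RE, the one DEG among 7 tested genes of its list (14.3%, against 8.58% of all genes in E vs. M). Of 18 tested cytosolic heat shock proteins, 1 was higher and 1 lower in M than in E at the adjusted p of 0.05. These are 5.56% each, against 21.5% and 19.9% of all genes. The median of the heat shock list was 0.22, equal to that of the members.

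**Figure D4:**
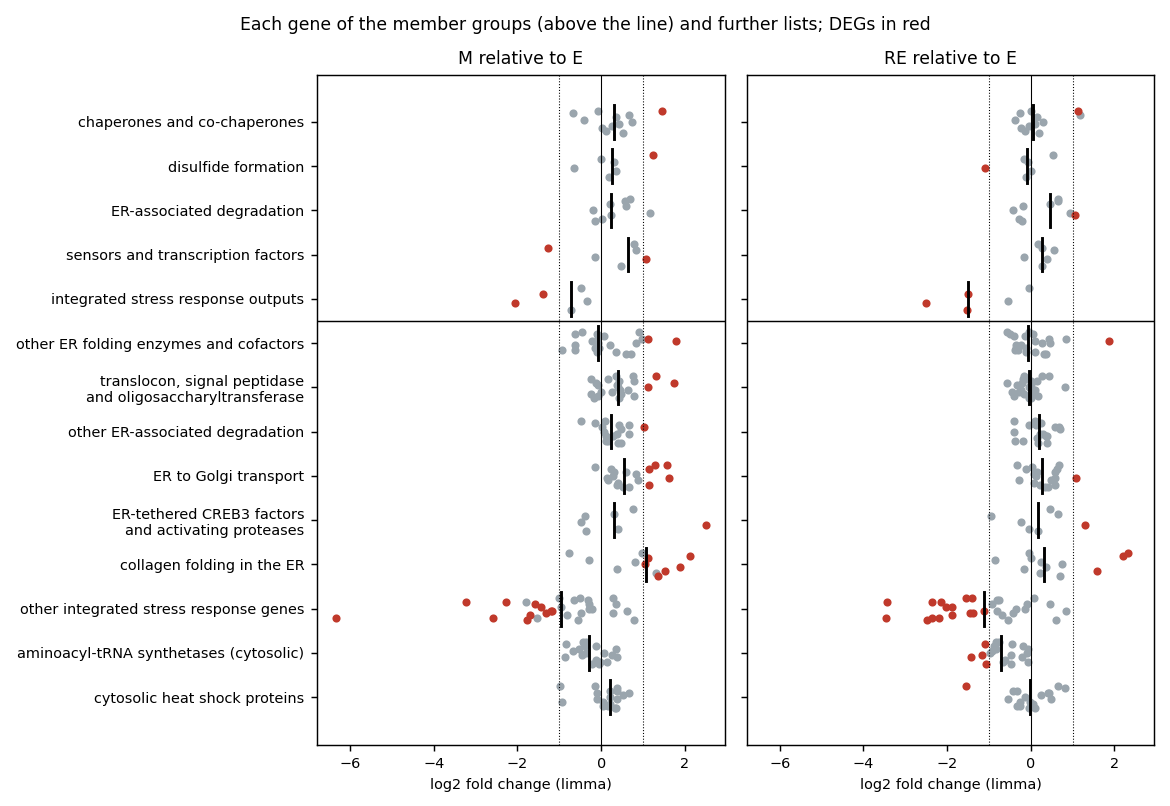
Points are log2 fold changes of single genes for M relative to E and RE relative to E, in the 5 member roles above the horizontal line and 9 further lists below it, with the median of each list as a bar, DEGs in red and dotted lines at 1 and -1. Integrated stress response genes, in the members and in the further list, lay to the left in both comparisons, with medians from -0.73 to -1.51, and collagen folding genes lay to the right in M, with a median of 1.08.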

How the data were processed

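RNA of EpH4 cells at 3 stages (E, M and RE, 2 libraries each) was sequenced on an Illumina Genome Analyzer. The authors mapped unique reads to the mouse genome (NCBI-m37) with Bowtie and TopHat2, and deposited 1 table of coverage (signal) for each gene and library, without normalization. Among values from 1 to 400 bases, 44.8% to 48.4% were multiples of 50, so that the values are bases and not reads. The study named edgeR, which needs read counts, and limma 3.58.1 was used here instead in R 4.3.3. The submitters' processing notes name the same tools.

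Coverage was scaled by unweighted TMM, with 30% of the log ratios and 5% of the mean levels cut off at either end and factors from 0.871 to 1.12, and expressed in ppm. Genes reaching 500 bases in 2 or more libraries were tested on log2(ppm + 0.1), with all 6 libraries, stage as the only term, empirical Bayes moderation with a trend, and Benjamini-Hochberg adjustment. limma was also fitted to M and RE alone. The steps were tested on simulated data. Depths and floors speak of counting error alone, and having only 2 libraries per stage is the tighter limit. Log2 fold changes are those of the second stage named over the first. The labels speak of biological replicas, but not of separate cultures for each library, so that p-values measure the spread between these libraries.

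The members and lists were chosen with earlier results of these data known. Every member is named. From each further list the text draws on the 3 genes with the largest change in each direction among DEGs whose average log2 value was 2 or more; some genes of these lists are not reported here. Transcript lengths (longest protein-coding transcript, GENCODE M21, GRCm38) matched 12795 of the genes tested (92.1%), and promoter windows are from RefSeq (GRCm38.p6), Python 3.11.15. Neither is of the build the authors used, and no coordinates of the files were used. Same-numbered libraries share a number, and the labels do not say whether they share anything more. Alternatives were median-of-ratios factors, library totals, other filters, pseudocounts and thresholds, fits of the 2 stages compared, a replicate block, array weights, each library left out and, added after the data were seen, removal of GC and length trends.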

Additional observations from a re-analysis of the deposited data

How the results depend on the processing

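Of the 13 DEG calls of members, 2 were kept in every alternative, Hspa13 and Trib3 in E vs. M, and 14 changes that were not called were called in at least 1. With library totals there were 2 DEGs in M vs. RE, and at a fold of 1.5 there were 5. DEGs over all genes in M vs. RE were 12.9% in the main fit, 13.7% with library totals and 16.5% at that fold. Members with an adjusted p below 0.05 in M vs. RE numbered 27 when these stages were fitted alone, 21 with array weights, 11 after removal of GC and length trends and 13 with that removal and the replicate block. When these stages were fitted alone, 7750 of the 13893 genes tested also had an adjusted p below 0.05. DEGs over all genes were 16.7% in that fit, 17.4% with array weights, and 14.8% and 15.3% after the removal, without and with the block. In E vs. RE a fit of E and RE alone left 2 DEGs, and DEGs over all genes fell from 9.37% to 3.78%. With 1 library left out, where a lone library is assumed to vary like the other stages, DEGs ran from 2 to 9 in E vs. M, 0 to 1 in M vs. RE and 0 to 8 in E vs. RE, and members with an adjusted p below 0.05 from 6 to 27, 2 to 26 and 5 to 32. In E vs. RE the DEG counts of the members and of all genes were both lowest without an RE library and highest without an E library.

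Values whose sign turned without 1 E library and that had an adjusted p below 0.05 in that fit were those of Manf (-0.54 to 0.54) and Ero1lb (-0.50 to 0.48) in E vs. M, and Hsp90b1 (-0.47 to 0.40), Manf (-0.76 to 0.29), Pdia3 (-0.41 to 0.40), Ern1 (-0.72 to 1.09), Hspa5 (-0.34 to 0.35) and Ppp1r15a (-0.38 to 0.32) in E vs. RE. Of the 114 member values, 46 without an adjusted p below 0.05 changed sign at least once under some alternative. The cause was not tested.

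Deviations of same-numbered libraries correlated at 0.267 (E and M), 0.058 (E and RE) and 0.116 (M and RE). These values do not settle whether the libraries were paired. The labels name no pairs, so that the numbers were not taken as pairs. With the replicate block, DEGs among the members numbered 6, 1 and 6 and those with an adjusted p below 0.05 numbered 12, 6 and 9 in E vs. M, M vs. RE and E vs. RE. DEGs over all genes were 17.5%, 13.2% and 9.24% with the block, against 17%, 12.9% and 9.37% in the main fit. Scaling by library totals moved the median of all genes to -0.29, 0.18 and -0.08, and the share of DEGs higher from 50.6% to 30.5%, 62.8% to 73.8% and 66.2% to 57.1%. Depth limited Derl3, which lay near the floor.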
